A study of Mus musculus with 12 samples.

Results

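Expression of 10 genes of adipocytes, lipid droplets and lipid synthesis was followed in 12 RNA sequencing libraries of the tibialis anterior of mice, the shin muscle that lifts the foot. The genes, taken from a fixed list of symbols, were Pparg, Thrsp, Adipoq, Plin1, Plin4, Cidea, Cidec, Me1, Fasn and Scd1. All 10 had a row among the 26264 genes of the count files, and 8 passed the filter on low counts. Plin1 and Cidec did not pass and are given as read counts. The 4 gel libraries came from muscle injected with 50 µl of matrix gel at 6 mg per ml. The 4 PBS libraries came from muscle injected with 50 µl of phosphate-buffered saline, the vehicle. The 4 uninjured libraries came from muscle labelled as uninjured. The protocol puts the gel in the left leg and PBS in the right, so side and treatment cannot be told apart, and gel and PBS libraries of one number are taken as legs of the same animal. The series title names acute and disuse muscle injury. The sources used here do not give the kind of injury, the time to collection or the strain, sex and age of the animals.

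Fat cells store triglyceride in a large droplet. The nuclear receptor PPARγ, encoded by Pparg, drives their differentiation together with C/EBPα. Perilipins and CIDE proteins coat the droplet and set its size and its access to lipases. New fatty acids are made in the cytosol: malic enzyme supplies NADPH, fatty acid synthase builds palmitate and stearoyl-CoA desaturase introduces a double bond. In skeletal muscle, small droplets lie inside the fibres, and fat cells can form between fibres from fibro-adipogenic progenitors after injury. Macrophages can also express Pparg and droplet coat genes.

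Library totals ran from 15626086 to 22182483 counts. Fibre markers were high in every library, with a summed level of 8 markers of 140000 to 214000 CPM (counts scaled to a common library size by edgeR) in gel, 209000 to 239000 in PBS and 234000 to 264000 in uninjured muscle. Of 5 keratinocyte genes, Krt5, Krt14 and Krt15 had 0 counts in all 12 libraries. The other genes of that list, Krt10 and Trp63, had counts in every library and passed the filter on low counts. Summed levels of 10 macrophage markers were 1010, 1930 and 2060 CPM in gel libraries 1, 2 and 4, against 83.7 CPM in gel library 3, 21.5 to 46.7 CPM in PBS libraries and 33.4 to 69.0 CPM in uninjured libraries. On the first principal component over all genes tested, gel library 3 lay at 5.37, gel libraries 1, 2 and 4 between -91.3 and -67.4, PBS libraries between 17.2 and 46.5 and uninjured libraries between 21.5 and 37.1. In bulk muscle, fewer cells of a type and less RNA per cell cannot be told apart.

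Adipoq, Plin1 and Cidec, genes that mark fat cells, were near the lower limit of detection in all 3 groups. Adipoq, which encodes the hormone adiponectin, had 22, 16, 2 and 22 counts in gel libraries 1 to 4, against 8, 22, 4 and 4 in PBS libraries and 2, 4, 10 and 2 in uninjured libraries. The groups overlapped throughout, with most counts in gel libraries 1 and 4 and PBS library 2 and fewest in gel library 3 and uninjured libraries 1 and 4. Plin1, the droplet coat protein that gates lipolysis in fat cells, had 0, 6, 5 and 15 counts in gel libraries, 5, 9, 0 and 0 in PBS libraries and 0, 0, 2 and 0 in uninjured libraries. Cidec, which promotes the fusion of droplets into the large droplet of white fat cells, had 2, 4, 6 and 10 counts in gel libraries, 8, 6, 0 and 0 in PBS libraries and 0, 6, 2 and 2 in uninjured libraries. A library with 0 counts allows a level of up to 0.135 to 0.192 CPM, which is 3 counts of its total. PBS libraries 3 and 4 had 0 counts for both Plin1 and Cidec.

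Adipoq was the single member of these 3 that could be tested. Its log2 fold change in edgeR was 0.51 ± 0.71 (SE) in gel over PBS, 0.86 ± 0.79 in PBS over uninjured and 1.36 ± 0.77 in gel over uninjured muscle, and the adjusted p was 0.623, 0.572 and 0.206. These standard errors are too wide to show a difference of this size. Over Adipoq, Plin1, Cidec and 6 other fat-cell genes (Lep, Retn, Adrb3, Lgals12, Acvr1c and Slc7a10), the summed level was 1.71 to 2.76 CPM in gel, 0.420 to 2.99 CPM in PBS and 0.506 to 1.76 CPM in uninjured libraries. These 6 did not pass the filter on low counts, so their low sum follows from the choice. Of 14 other adipocyte markers 7 passed it. In gel, PBS and uninjured libraries, Fabp4 averaged 132, 115 and 164 CPM, Lipe 16.8, 20.4 and 31.4 CPM and Cfd 3.48, 1.59 and 1.69 CPM. Adrb3, the beta-adrenergic receptor gene of fat cells, had 0 counts in all PBS and uninjured libraries and at most 4 in a gel library. Cfd, which encodes the fat-cell protease adipsin, was at 1.11 ± 0.51 on the log2 scale in gel over PBS (edgeR adjusted p = 0.111).

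**Figure D1:**
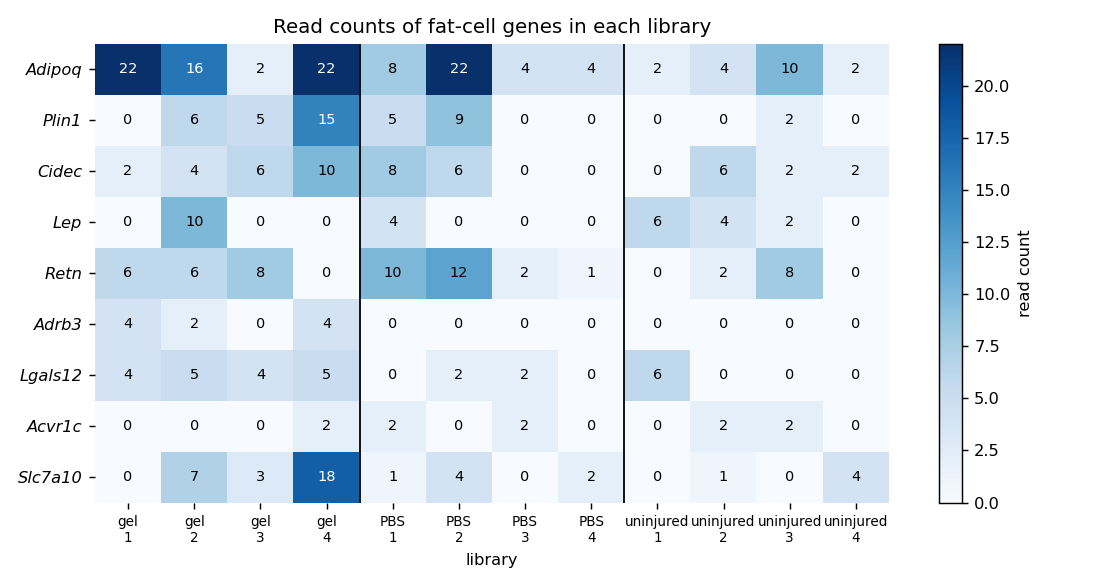
Read counts of 9 fat-cell genes (rows) in the 12 libraries (columns), with the count printed in each cell and the shade giving the count. No cell exceeds 22 counts, and high and low libraries occur within each of the gel and PBS groups.

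Pparg rose in gel muscle, in 3 of the 4 gel libraries. Its level was 6.48, 7.32, 2.69 and 9.30 CPM in gel libraries 1 to 4, against 3.45, 2.83, 2.75 and 3.24 CPM in PBS libraries and 3.64, 3.72, 3.11 and 3.92 CPM in uninjured libraries. Gel libraries 1, 2 and 4 lay above every other library, and gel library 3 lay below all of them, so the groups overlapped. The log2 fold change was 1.08 ± 0.29 (SE) in gel over PBS (edgeR adjusted p = 0.0132) and 0.85 ± 0.29 in gel over uninjured muscle (adjusted p = 0.0427). Between PBS and uninjured muscle it was -0.23 ± 0.30 (adjusted p = 0.711).

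Without gel library 3 the difference of Pparg was 1.32 over PBS (adjusted p = 7.79e-05) and 1.09 over uninjured muscle (adjusted p = 0.000518). The call over PBS was lost without gel library 4 (adjusted p = 0.0630). The call over uninjured muscle was lost when any library other than gel library 3 was left out, with adjusted p of 0.0669 (gel 1), 0.108 (gel 2) and 0.185 (gel 4). Leaving out PBS libraries 1 to 4 in turn gave 0.0528, 0.0540, 0.0515 and 0.0575, and leaving out uninjured libraries 1 to 4 in turn gave 0.0843, 0.0858, 0.111 and 0.0737. It was also lost with limma voom (0.101) and with the 2 groups alone (0.0876).

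Cebpa, the gene of the partner factor C/EBPα, showed the same libraries high: 18.4, 24.0, 2.69 and 17.2 CPM in gel libraries 1 to 4, against 1.92 to 4.02 CPM in PBS and 3.12 to 4.30 CPM in uninjured libraries. Its log2 fold change in gel over PBS was 2.46 ± 0.49 (edgeR adjusted p = 0.00440). The gel libraries with high Pparg and Cebpa were those with high macrophage markers. Of 10 macrophage markers, 9 rose and 0 fell in gel over PBS (29.8% of all genes passed, 16.6% higher and 13.2% lower), and Adgre1, which encodes the surface marker F4/80, was at 4.72 ± 0.97 (edgeR adjusted p = 0.00574, and 0.0664 with limma voom). The part of macrophages in the level of Pparg was not tested.

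Thrsp rose in all 4 gel libraries. It encodes the nuclear protein Spot 14, which is induced by thyroid hormone and carbohydrate in liver and fat and promotes fatty acid synthesis. Its level was 24.9, 43.4, 34.0 and 67.7 CPM in gel libraries 1 to 4, against 13.9, 9.78, 9.50 and 14.2 CPM in PBS libraries and 20.1, 21.5, 19.7 and 17.2 CPM in uninjured libraries. No 2 groups overlapped: gel was highest, uninjured next and PBS lowest. The log2 fold change was 1.85 ± 0.26 (SE) in gel over PBS (edgeR adjusted p = 0.00127) and 1.12 ± 0.25 in gel over uninjured muscle (adjusted p = 0.00638).

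Both Thrsp calls held in every alternative run, with adjusted p of at most 0.0113 over PBS and 0.0228 over uninjured muscle. Between PBS and uninjured muscle the log2 fold change was -0.73 ± 0.26, which missed the threshold (adjusted p = 0.108). It passed with the 2 groups alone (adjusted p = 0.00203), with the DESeq2 Wald test (by less than its rounding), and without gel library 1 (0.0402) or 4 (0.0260). Thrsp was at 24.9, 43.4 and 67.7 CPM in gel libraries 1, 2 and 4, where macrophage markers summed to 1010, 1930 and 2060 CPM, and at 34.0 CPM in gel library 3, where they summed to 83.7 CPM. The part of macrophages in the level of Thrsp was not tested. Within each gel and PBS pair Thrsp was higher in gel, by 0.84, 2.14, 1.83 and 2.25 on the log2 scale in pairs 1 to 4.

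**Figure D2:**
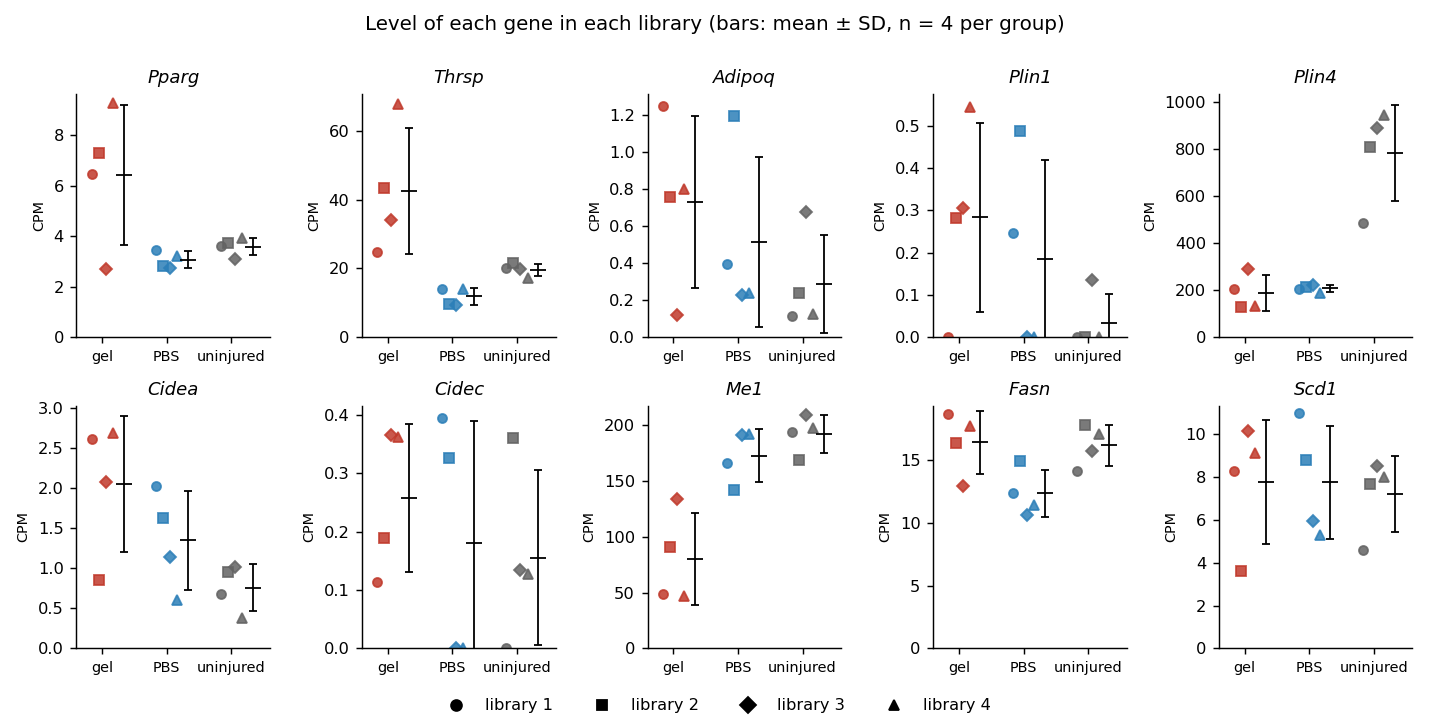
Level (CPM, vertical axes starting at 0) of the 10 genes in each library of the gel, PBS and uninjured groups, with marker shape giving the library number and bars giving the mean and SD (bars that reach below 0 end at the axis). Thrsp separates all 3 groups, Plin4 is high in uninjured muscle alone, Me1 is low in gel muscle, and Pparg is high in gel libraries 1, 2 and 4.

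Among the 8 members tested, Plin4 had the largest log2 fold change between injected and uninjured muscle. It encodes perilipin 4, a coat protein of small and newly formed droplets that is made in fat, heart and skeletal muscle. Its level was 205, 130, 288 and 131 CPM in gel libraries 1 to 4, against 204, 212, 224 and 189 CPM in PBS libraries and 485, 809, 889 and 946 CPM in uninjured libraries. Every gel and PBS library lay below every uninjured library. Gel and PBS libraries overlapped, with gel library 3 above and gel libraries 2 and 4 below all PBS libraries.

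Plin4 fell by 1.92 ± 0.26 (SE) on the log2 scale in PBS muscle (edgeR adjusted p = 0.000837) and by 2.06 ± 0.26 in gel muscle (adjusted p = 0.000201), both against uninjured muscle. Over all alternatives the adjusted p was at most 0.00535 and 0.00242. The difference between gel and PBS muscle was -0.14 ± 0.25 (adjusted p = 0.710). From the deposited names, PBS legs are taken to come from the animals given the gel, and uninjured muscle from other animals. On that reading, injection, injury and the set of animals cannot be told apart in the comparisons with uninjured muscle.

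Cidea encodes a droplet protein that enlarges droplets and is best known from brown fat. Its level was 2.62, 0.850, 2.08 and 2.69 CPM in gel libraries 1 to 4, against 2.02, 1.63, 1.14 and 0.600 CPM in PBS libraries and 0.682, 0.959, 1.01 and 0.380 CPM in uninjured libraries. The groups overlapped through gel library 2 and PBS library 4. Cidea rose in gel over uninjured muscle, by 1.44 ± 0.47 on the log2 scale (edgeR adjusted p = 0.0365), and was at 0.60 ± 0.45 in gel over PBS (adjusted p = 0.333) and 0.84 ± 0.48 in PBS over uninjured muscle (adjusted p = 0.328). The call was lost with limma voom (0.0878), without gel library 1 (0.0814) or 4 (0.116), and with each of uninjured libraries 1 to 4 left out in turn (0.0867, 0.0605, 0.0565 and 0.104). Ucp1, the uncoupling protein gene of brown fat, had 0 counts in all PBS and uninjured libraries and averaged 0.0466 CPM in gel libraries. Of the 6 brown fat markers tested, Dio2 rose and Tbx15 fell in gel over uninjured muscle (14.5% and 11.1% of all genes). They were at 1.66 ± 0.47 and -0.72 ± 0.21 (edgeR adjusted p = 0.0181 and 0.0227).

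Me1, the gene of the cytosolic malic enzyme that yields NADPH for fatty acid synthesis, fell in gel muscle. Its level was 48.8, 91.1, 133 and 46.6 CPM in gel libraries 1 to 4, against 166, 141, 191 and 192 CPM in PBS libraries and 193, 168, 209 and 197 CPM in uninjured libraries. Every gel library lay below every PBS and uninjured library, with gel library 3 closest to them. The log2 fold change was -1.11 ± 0.28 (SE) in gel over PBS (edgeR adjusted p = 0.0112) and -1.26 ± 0.28 in gel over uninjured muscle (adjusted p = 0.00631). It was -0.15 ± 0.28 in PBS over uninjured muscle (adjusted p = 0.801).

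Both Me1 calls held in every alternative run, and without gel library 3 the falls were larger, at -1.48 and -1.64. Of 8 fibre markers, 3 fell (Ckm, Myh4 and Myh1) and 1 rose (Mylpf) in gel over PBS (13.2% and 16.6% of all genes). Their summed level was 140000 to 214000 CPM in gel libraries and 209000 to 239000 CPM in PBS libraries, with gel library 3 above PBS library 4, and their part in the fall of Me1 was not tested. Me3, the gene of a mitochondrial NADP-dependent malic enzyme, also fell, by 0.89 ± 0.19 in gel over PBS and by 0.77 ± 0.19 in gel over uninjured muscle (edgeR adjusted p = 0.00425 and 0.00862).

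Fasn, which encodes fatty acid synthase, varied little. Its level was 18.7, 16.3, 12.9 and 17.7 CPM in gel libraries 1 to 4, against 12.3, 14.9, 10.6 and 11.4 CPM in PBS libraries and 14.1, 17.8, 15.7 and 17.1 CPM in uninjured libraries. Gel and PBS overlapped through gel library 3 and PBS library 2, and gel was higher within each of the 4 pairs. Fasn rose in gel over PBS by 0.41 ± 0.15 on the log2 scale, close to the threshold (edgeR adjusted p = 0.0465). It was at -0.39 ± 0.15 in PBS over uninjured muscle (adjusted p = 0.132) and at 0.02 ± 0.15 in gel over uninjured muscle (adjusted p = 0.925).

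The call for Fasn was lost in 15 of 20 alternatives. The adjusted p was 0.0842 with the replicate block, 0.0553 with the other size factors, 0.0768 with no filter and 0.0941 with the 2 groups alone. It was 0.112 (gel 1), 0.0944 (gel 2), 0.142 (gel 4), 0.0886 (PBS 1), 0.132 (PBS 3) and 0.123 (PBS 4) with that library left out. Leaving out uninjured libraries 1 to 4 in turn gave 0.0558, 0.0617, 0.0655 and 0.0632. Without gel library 3 the difference was 0.50 (adjusted p = 0.00940).

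Scd1, the stearoyl-CoA desaturase gene, showed no difference past the threshold. Its level was 8.25, 3.59, 10.1 and 9.09 CPM in gel libraries 1 to 4, against 10.95, 8.80, 5.95 and 5.28 CPM in PBS libraries and 4.60, 7.68, 8.51 and 7.97 CPM in uninjured libraries. The 3 groups overlapped over most of their ranges. The log2 fold changes were -0.00 ± 0.31, 0.11 ± 0.31 and 0.11 ± 0.31 in gel over PBS, PBS over uninjured and gel over uninjured muscle, and the smallest edgeR adjusted p was 0.825. Each sign turned with some library left out. Scd1 has the close paralogs Scd2, Scd3 and Scd4, and reads with several matches may be split among them in a way the sources used here do not give.

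**Figure D3:**
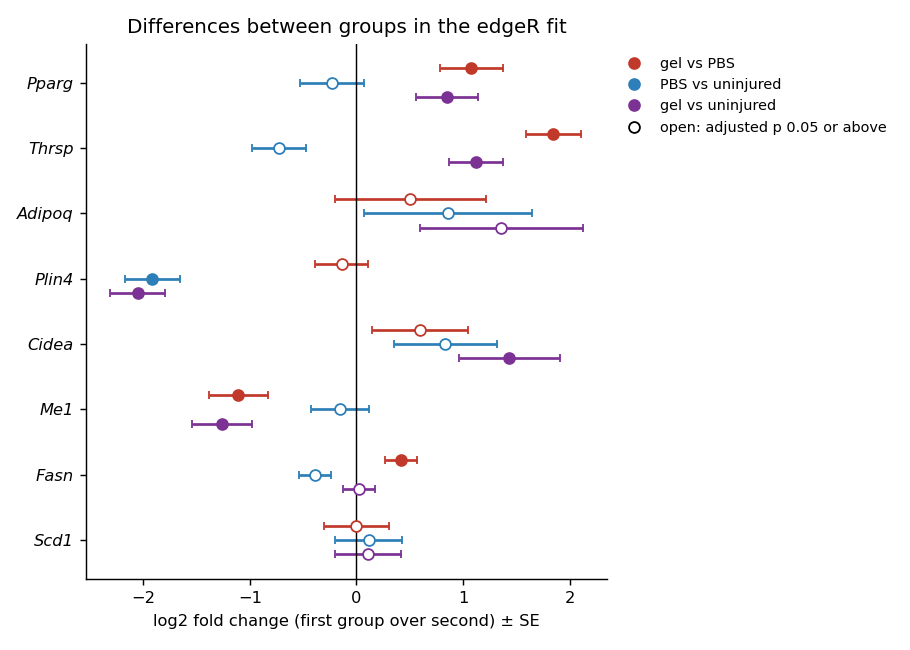
Log2 fold change with SE (horizontal axis) of the 8 genes tested, in gel over PBS, PBS over uninjured and gel over uninjured muscle, with filled points for an edgeR adjusted p under 0.05. Thrsp lies at 1.85 and Me1 at -1.11 in gel over PBS, while Plin4 lies at -1.92 and -2.06 in the comparisons with uninjured muscle.

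Of the 8 members tested, 4 passed in gel over PBS (Thrsp, Pparg and Fasn higher, Me1 lower), where 29.8% of all 13499 genes tested passed, 16.6% higher and 13.2% lower. In PBS over uninjured muscle 1 passed (Plin4 lower), where 6.17% of all genes did, 2.79% higher and 3.39% lower. In gel over uninjured muscle 5 passed (Thrsp, Cidea and Pparg higher, Plin4 and Me1 lower), where 25.6% of all genes did, 14.5% higher and 11.1% lower. The ranges of gel and PBS did not overlap for 2 members, Thrsp higher and Me1 lower, beside 20.2% of all genes, 10.4% higher and 9.79% lower. Those of PBS and uninjured muscle did not overlap for 2, Thrsp and Plin4, both lower, beside 20.6% of all genes, 10.4% higher and 10.2% lower. Those of gel and uninjured muscle did not overlap for 3, Thrsp higher and Me1 and Plin4 lower, beside 22.9% of all genes, 11.3% higher and 11.7% lower. The median log2 fold change of the members tested was 0.46, -0.19 and 0.48 in these comparisons, beside 0.04, 0.00 and 0.03 over all genes tested. The 3 comparisons share libraries pairwise.

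Between neighbouring groups in each order, Pparg ran gel, uninjured, PBS with uninjured and PBS not told apart, and Me1 ran uninjured, PBS, gel with uninjured and PBS not told apart. For Pparg the ranges of gel and uninjured muscle overlapped, and the call between them was lost in 13 of 18 alternatives. Plin4 ran uninjured, PBS, gel with PBS and gel not told apart. Thrsp ran gel, uninjured, PBS with uninjured and PBS apart in their ranges but not past the threshold, and Fasn ran gel, uninjured, PBS with neither neighbouring pair told apart and with gel and uninjured changing places when some libraries were left out. Cidea and Adipoq ran gel, PBS, uninjured, again with no neighbouring pair told apart.

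**Figure D4:**
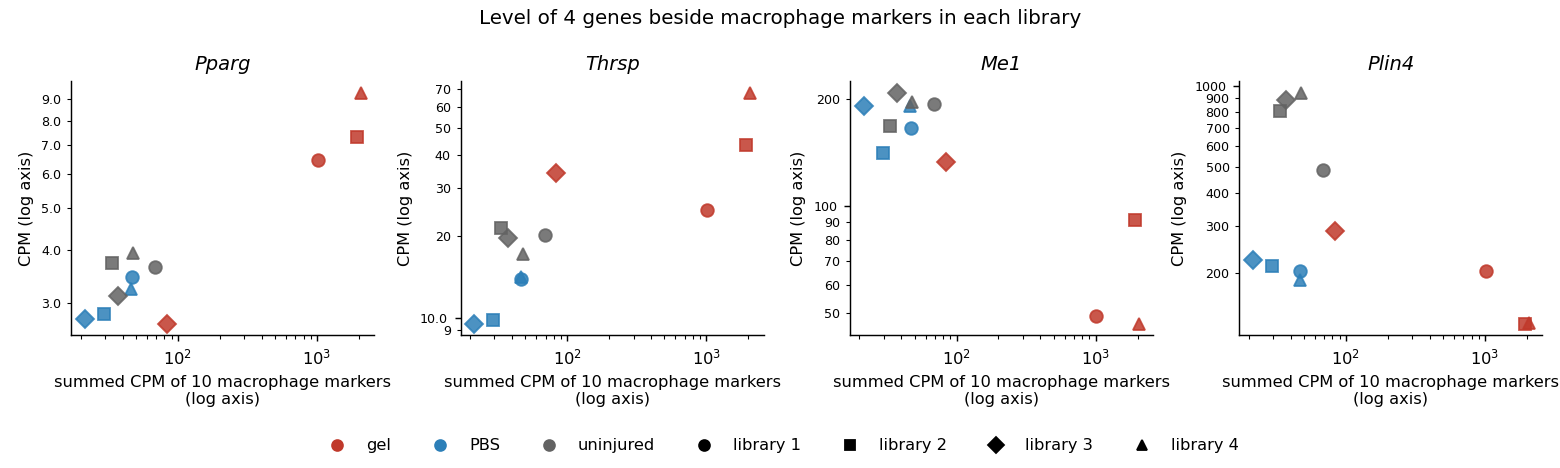
Level of Pparg, Thrsp, Me1 and Plin4 (CPM, log axis) against the summed CPM of 10 macrophage markers (log axis) in each library, coloured by group with marker shape giving the library number. Gel library 3, at 83.7 CPM of macrophage markers, lies with the PBS libraries for Pparg and above all PBS and uninjured libraries for Thrsp.

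The bases before the start sites of Thrsp, Fasn and Plin4 are shown for the tested member with the largest difference in gel over PBS (Thrsp), the fatty acid synthase gene (Fasn) and the tested member with the largest difference against uninjured muscle (Plin4). They are the 250 bases upstream from RefSeq on GRCm38.p6, 5′ to 3′ along the gene, with CCAAT or its reverse complement ATTGG in capitals. The counts were made on mm39, and no coordinate of the one is used with the other.
Thrsp: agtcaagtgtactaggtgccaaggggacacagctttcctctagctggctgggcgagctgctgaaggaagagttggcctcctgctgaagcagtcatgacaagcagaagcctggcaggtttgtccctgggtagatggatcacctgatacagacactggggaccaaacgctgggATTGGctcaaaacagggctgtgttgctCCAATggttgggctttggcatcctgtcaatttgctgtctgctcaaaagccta
Fasn: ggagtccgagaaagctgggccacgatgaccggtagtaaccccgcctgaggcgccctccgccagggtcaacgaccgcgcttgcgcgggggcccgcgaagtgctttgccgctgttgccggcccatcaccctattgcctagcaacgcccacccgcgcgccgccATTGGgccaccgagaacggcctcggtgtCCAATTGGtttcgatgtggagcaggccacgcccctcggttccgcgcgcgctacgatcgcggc
Plin4: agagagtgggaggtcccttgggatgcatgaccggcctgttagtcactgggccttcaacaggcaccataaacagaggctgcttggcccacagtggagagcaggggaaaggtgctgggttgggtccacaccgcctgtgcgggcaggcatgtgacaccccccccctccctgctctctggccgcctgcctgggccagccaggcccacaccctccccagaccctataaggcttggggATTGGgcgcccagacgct

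The Thrsp stretch lies at chr7:97417551-97417800 on the minus strand, that of Fasn at chr11:120824548-120824797 on the minus strand and that of Plin4 at chr17:56109783-56110032 on the minus strand. Thrsp held 2 matches to CCAAT on either strand, Fasn 3, of which 2 overlap in the run CCAATTGG, and Plin4 1. Of 32851 upstream stretches of this length in the same table, 33.8% held at least 1. None of the 3 held TATAAA (12.4% of all stretches), CACGTG (6.02%) or AGGTCA (14.0%) on either strand. Of the 10 genes, 8 had an entry in the part of the table used for them, which left out a chromosome. Cidea and Scd1 are not among these. The chromosome left out need not account for both, and their absence is not a finding about their promoters.

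The other lipid genes did not move in 1 direction. The share of all genes tested that passed is given beside the count of each list, and the median log2 fold change over all genes tested was 0.04 in gel over PBS. Of 19 genes of fatty acid synthesis and NADPH supply 17 were tested, and 6 rose and 2 fell in gel over PBS (16.6% and 13.2% of all genes), with a median of 0.29. G6pdx, whose product opens the pentose phosphate pathway and yields NADPH, rose by 2.00 ± 0.40 (SE) on the log2 scale and Pgd, the next NADPH-yielding enzyme of that pathway, by 0.89 ± 0.21 (edgeR adjusted p = 0.00448 and 0.00622). The level of G6pdx was 21.5, 32.7, 5.98 and 28.9 CPM in gel libraries 1 to 4. PBS libraries ran from 3.78 to 6.61 CPM and uninjured libraries from 5.52 to 8.35 CPM, and gel library 3 lay within both ranges. Acacb, the carboxylase whose malonyl-CoA restrains fatty acid entry into mitochondria, fell by 0.86 ± 0.19 (adjusted p = 0.00507). Acaca and Acly, which supply the carbon of Fasn's reaction, were at 0.29 ± 0.16 and 0.04 ± 0.17 (adjusted p = 0.192 and 0.890). In gel over uninjured muscle 7 rose and 2 fell (14.5% and 11.1% of all genes), with a median of 0.57 beside 0.03 over all genes. In PBS over uninjured muscle 1 rose and 0 fell (2.79% and 3.39% of all genes), with a median of 0.22 beside 0.00.

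Of 14 other droplet coat and lipase genes 13 were tested, and 2 rose and 4 fell in gel over PBS (16.6% and 13.2% of all genes), with a median of 0.08. Plin2, the coat protein of droplets in most cells and in lipid-laden macrophages, was at 84.3, 241, 60.5 and 217 CPM in gel libraries 1 to 4, against 39.1 to 47.2 CPM in PBS and 28.2 to 34.7 CPM in uninjured libraries. It rose by 1.76 ± 0.37 over PBS (edgeR adjusted p = 0.00574, with 0.0578 under the replicate block as the highest of 20 alternatives) and by 2.25 ± 0.38 over uninjured muscle (adjusted p = 0.00187), where Plin4 fell. The part of macrophages in the level of Plin2 was not tested. Pnpla3, a lipase gene, rose by 1.13 ± 0.22 and Fitm2, which helps droplets bud from the endoplasmic reticulum, fell by 0.90 ± 0.19 in gel over PBS (adjusted p = 0.00279 and 0.00387). In PBS over uninjured muscle they were at -0.88 ± 0.22 and 0.79 ± 0.19 (edgeR adjusted p = 0.0258 and 0.0215). In gel over uninjured muscle they were at 0.255 ± 0.21 and -0.11 ± 0.19, not past the threshold (edgeR adjusted p = 0.399 and 0.709). Of 13 triglyceride synthesis genes 11 were tested, with 1 higher and 1 lower in gel over PBS (16.6% and 13.2% of all genes) and a median of -0.15. The lower was Lpin1, a phosphatidate phosphatase gene, at -1.01 ± 0.19 over PBS and -1.26 ± 0.19 over uninjured muscle (adjusted p = 0.00261 and 0.000478).

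Of 22 regulators of fat cells and lipid synthesis, all tested, 1 rose and 6 fell in gel over PBS, so that the number passing in either direction was near the 29.8% of all genes, of which 16.6% rose and 13.2% fell. The median of the regulators was -0.30. Rxra, the gene of a partner receptor of PPARγ, fell by 1.06 ± 0.19 (edgeR adjusted p = 0.00227). Srebf1, a transcription factor gene whose product activates Fasn and Scd1, rose by 0.98 ± 0.15 in PBS over uninjured muscle and fell by 0.54 ± 0.15 in gel over PBS (adjusted p = 0.00166 and 0.0141), while Fasn was at -0.39 and 0.41. In PBS over uninjured muscle 2 regulators rose and 2 fell (2.79% and 3.39% of all genes). Ppargc1b, a coactivator gene, rose by 1.30 ± 0.15 (adjusted p = 0.000141), and Cebpd, an early factor of fat cell differentiation, fell by 2.90 ± 0.23 (adjusted p = 1.90e-05). In gel over uninjured muscle 2 rose and 8 fell (14.5% and 11.1% of all genes).

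Of 14 other adipocyte markers 7 were tested: Cebpa rose and Gpd1 fell in gel over PBS, and none passed in PBS over uninjured muscle (6.17% of all genes). Lipe, which encodes hormone-sensitive lipase, fell by 0.90 ± 0.21 in gel over uninjured muscle (edgeR adjusted p = 0.00656). Of 8 fatty acid uptake genes 1 rose and 1 fell in gel over PBS. Gpihbp1, which carries lipoprotein lipase to the capillary wall, fell by 1.07 ± 0.22 in PBS and by 1.13 ± 0.22 in gel muscle, both against uninjured muscle (adjusted p = 0.0103 and 0.00230). Of 7 brown fat markers 6 were tested and 1 fell, 0 rose, in gel over PBS. Of 8 markers of fibro-adipogenic progenitors 2 rose and 0 fell in gel over PBS. Each of these 4 lists had a share called in gel over PBS at or below the 29.8% of all genes, and their medians were 0.19 (adipocyte markers), -0.18 (uptake), -0.05 (brown fat) and 0.43 (progenitors).

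**Figure D5:**
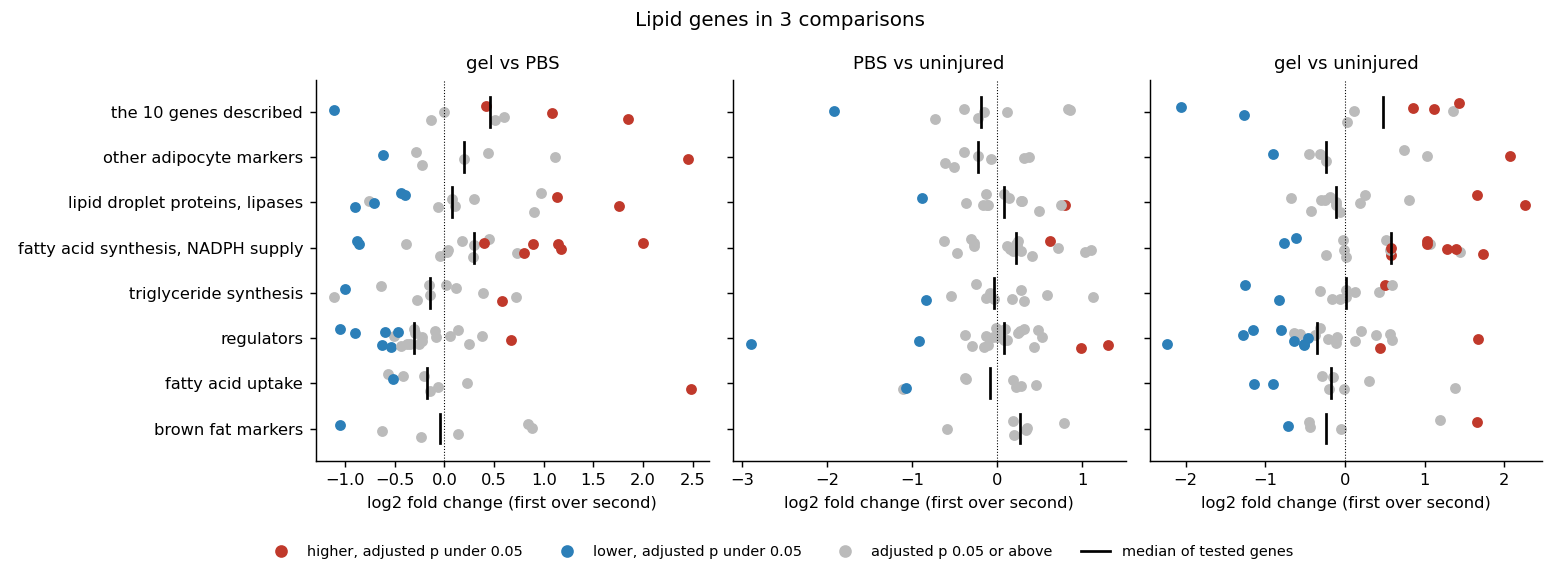
Log2 fold change (horizontal axis, first group over second) of each tested gene in 8 lists, in 3 panels for gel over PBS, PBS over uninjured and gel over uninjured, coloured by direction where the edgeR adjusted p was under 0.05, with a bar at the median of each list. In the panels for gel over PBS and gel over uninjured, most lists hold both higher and lower genes past the threshold. Of 22 regulators, 2 are higher and 8 are lower in gel over uninjured muscle (14.5% and 11.1% of all genes).

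Among all genes tested, with the members left out, those whose log2 CPM followed Adipoq most closely over the 12 libraries were L3mbtl3, Gab2, Hif1a, Pigf and Spata13, with Pearson's r of 0.835 to 0.872 as the measure of likeness. Of 14 other adipocyte markers, the 7 that passed the filter on low counts could appear here, and none did. The rest could not appear. For Fasn they were Plekhg2, Pcsk7, Flna, Trpv4 and Pkd2, with r of 0.906 to 0.925, and each averaged lower in PBS than in gel and uninjured libraries. For Plin4, added after its values were seen, they were Ucp3, Map3k6, Mast2, Arrdc2 and Ddit4, with r of 0.973 to 0.987, and each averaged higher in uninjured than in gel and PBS libraries. The 12 libraries share the 3 groups, and legs of an animal are not independent, so these values are given as a description.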

How the data were processed

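The authors deposited counts of reads per gene symbol, 1 file for each library, not normalised. The submitters' processing notes name STAR, edgeR and the mouse build mm39. The sources used here do not give the counting program, its strand setting or how it treated mates and reads with several matches. Of the values from 1 to 20 in a library, 74.9% to 85.9% were even, so mates may have been counted as 2 reads, and a count of 2 may be 1 fragment. Floors from counts cover counting error only.

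Differences were tested in edgeR 4.0.16 (R 4.3.3). There filterByExpr kept 13499 genes, library totals were scaled by TMM, and a robust quasi-likelihood model with 1 coefficient per group was fitted to all 12 libraries (9 residual degrees of freedom). Adjusted p-values are Benjamini-Hochberg over every tested gene. The words "rose" and "fell" are used below an adjusted p of 0.05. The SE is the log2 fold change over the square root of F. The procedure was tested on simulated data. Alternatives used DESeq2 1.42.0, limma 3.58.1 voom, other size factors, no filter, 2 groups alone, each library left out, the replicate number as a block, and, chosen after seeing the data, halved counts and the block without pair 3. Libraries are read as separate animals within a group, since the deposited names number them apart.

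Gel and PBS libraries of one number carry the same animal number in the deposited names, with left and right legs. The correlation of their deviations from the group means over genes was -0.0559 to 0.311 over the 4 pairs. Replicates of each group differed by more than sampling noise (chi-square per gene of 6.50 or higher).

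Members and lists were chosen with earlier results of these data known. Named genes are the 10 members, a fixed set of lipid genes, up to 4 genes past the threshold with the smallest p from each list and comparison, and the 5 genes most like Adipoq and Fasn; some of these are given. Promoter sequences are from RefSeq.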

Additional observations from a re-analysis of the deposited data

Results flagged for a closer look

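Within a group of 4 libraries, the gap between the most extreme library and its nearest neighbour was compared with the group's range on the log2 CPM scale, against Dixon's critical value. Chance flags about 1 in 20 groups, and 2 of 30 were flagged. Scd1 was low in uninjured library 1, with a gap of 0.831 of the range. Plin1 was high in uninjured library 3, with a gap of 1.0 of the range, because the other uninjured libraries had 0 counts and this one had 2.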

How the results depend on the processing

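Thrsp and Me1 in gel over PBS and in gel over uninjured muscle, and Plin4 in both comparisons with uninjured muscle, kept direction and call in all alternatives run. The number of members called moved in PBS over uninjured muscle to 2 with DESeq2 and to 2 with the 2 groups alone, and over libraries left out it was 1 to 2, with 2 without gel library 1 or 4. In gel over uninjured muscle it was 3 with limma voom and 3 to 5 over libraries left out, with 3 without gel library 1 or 4 or any uninjured library. In gel over PBS it was 2 to 4, with 2 without gel library 4. Over all genes, PBS over uninjured muscle gave 833 genes, 1417 with DESeq2 and 2339 with the 2 groups alone, and 378 to 1693 over libraries left out (1693 without gel library 3, and 378 to 543 without PBS library 1, 2 or 3 or uninjured library 2, 3 or 4). Gel over PBS gave 4022, 2559 with the 2 groups alone, and over libraries left out 2456 (without gel library 4) to 5962, and gel over uninjured muscle gave 3449 and 2275 (without gel library 4) to 5341 (without gel library 3).

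The sign of Scd1 in gel over PBS turned with the 2 groups alone (0.002) and with halved counts (0.014), and ran from -0.174 to 0.221 over libraries left out. It ran from -0.103 to 0.254 in PBS over uninjured and from -0.063 to 0.330 in gel over uninjured muscle. Fasn ran from -0.046 to 0.109 in gel over uninjured muscle and Acly from -0.065 to 0.14 in gel over PBS. The cause was not tested.

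With the replicate block, gel over PBS gave 2971 genes and 3 members; the calls of Fasn (adjusted p = 0.0842) and Plin2 were lost, and the calls of the other genes given with a gel over PBS fold change were kept. The counts over gene lists were not refitted with the block. Without pair 3 in that fit, Fasn was at 0.38 (adjusted p = 0.152). With no filter, Plin1 and Cidec could be fitted but not called. Counts of at most 22 in a library limit what Adipoq, Plin1 and Cidec can show.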
